A study of Mus musculus with 6 samples.

Results

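The genes described here encode the proteasome. They are the 45 genes, of 20632 in the deposited table, whose symbol begins with *Psma*, *Psmb*, *Psmc*, *Psmd* or *Psme* followed by a digit. The proteasome is the main protease of the cytosol and nucleus. A barrel-shaped core particle, built from rings of alpha and beta subunits, holds the active sites inside, and a regulatory particle made of a base and a lid binds ubiquitin chains, removes them and feeds the unfolded protein into the core. In skeletal muscle the ubiquitin-proteasome system degrades much of the myofibrillar protein that is lost in atrophy. In cells exposed to interferon, and in many leukocytes, the catalytic beta subunits *Psmb5*, *Psmb6* and *Psmb7* are exchanged for *Psmb8*, *Psmb9* and *Psmb10*, which form the immunoproteasome.

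By role, the 45 genes comprise 31 constitutive subunits (7 of the alpha ring, 7 of the beta ring, 6 ATPases and 3 other proteins of the base, and 8 of the lid), the 3 immunoproteasome subunits, 3 assembly chaperones of the regulatory particle (*Psmd5*, *Psmd9*, *Psmd10*), 4 activators (*Psme1* to *Psme4*) and 2 tissue-specific core subunits (*Psma8*, *Psmb11*). The remaining 2 genes were included by the form of the symbol and placed in none of these roles. *Psmc3ip* encodes a protein that binds the product of *Psmc3* and is not a subunit, and *Psme2b* is a copy of *Psme2*.

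Total RNA was sequenced from hind limb muscles of 6 mice, 3 of them Baf155 WT and 3 Baf155 ΔMF, all unexercised C57BL/6 males aged 3 months, with 1 library per mouse. Baf155, encoded by *Smarcc1*, is a core subunit of the SWI/SNF chromatin remodelling complex. Both groups carry the floxed *Baf155* allele (Baf155 f/f), and the Baf155 ΔMF mice carry MCK-Cre in addition, whose muscle creatine kinase promoter is active in skeletal and cardiac muscle fibres. The labels give the genotypes as wild type and Baf155 -/-, although cells of the muscle other than fibres keep the gene. The comparison of the genotypes asks which transcripts differ when fibres lack Baf155.

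The table held 8426022 to 12469335 counts per mouse, of which the 45 genes took 0.398% to 0.450%. A count of 3, used as the floor, equalled 0.230 to 0.351 CPM (counts scaled to the same effective library size), and it covers counting error only. *Smarcc1* was at 19.96 ± 3.25 CPM in Baf155 WT mice and 7.10 ± 0.590 CPM in Baf155 ΔMF mice (mean ± SD, n = 3), without overlap and with a log2 fold change of -1.49 (SE 0.15, edgeR adjusted p = 0.00907). Myofibre markers summed to between 142792 and 191351 CPM in every mouse. Sample titles start with MS13, MS14 or MS15, whose meaning is not given. MS13 covers 1 Baf155 WT mouse (MS13-3) and 2 Baf155 ΔMF mice (MS13-1, MS13-2), whereas MS15 holds only Baf155 WT mice (MS15-2, MS15-3) and MS14 only a Baf155 ΔMF mouse (MS14-2), so apart from MS13 the prefix cannot be separated from genotype. Values within MS13 are therefore given beside results that this split touches.

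Proteasome transcripts were at nearly the same level in both genotypes. Of the 45 genes, 43 had enough counts to be tested, and 0 of them passed an adjusted p of 0.05 with edgeR's quasi-likelihood test, against 0.0248% of all 12116 genes tested. An unadjusted p under 0.05 was also reached by 0 of them in either direction, where 4.6% of all genes lay lower in Baf155 ΔMF mice with such a p and 3.35% lay higher. DESeq2 and limma-voom gave 0 proteasome genes at either limit as well. The smallest edgeR adjusted p was 0.624, for *Psma2*, and the largest 0.998, for *Psmb5*. The differences were small in size. The log2 fold change of 42 of the 43 genes lay within 0.25 of 0, compared with 78.5% of all genes, and *Psme2b*, with under 3 CPM in every mouse, was the exception. It was below 0 for 30 genes and above 0 for 13, where 50.2% of all genes were below 0, and the median was -0.06, against -0.00095 for all genes. The lean below 0 was not seen within MS13, which holds 1 Baf155 WT mouse. There the median was 0.02 for the constitutive subunits, against -0.05 over all mice. For the immunoproteasome subunits it was 0.65 there, against 0.02 over all mice. Fewer cells of a type and less RNA per cell cannot be told apart in such whole-muscle libraries.

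The intervals of the constitutive subunits show the precision of the edgeR fit, which does not separate genotype from title prefix. All 31 had a 95% interval of the log2 fold change that covered 0 and stayed between -0.39 and 0.43, and the largest estimated difference in either direction was 1.13-fold. An interval within 0.5 of 0 was found for 38 of the 43 tested genes and for 59.2% of all genes. The 5 others were *Psmb8*, *Psmb9*, *Psme4*, *Psmc3ip* and *Psme2b*, whose intervals reached past that size.

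One library changed a call. Without the Baf155 WT mouse MS13-3, *Psmd11* passed the limit with a log2 fold change of 0.33 (edgeR adjusted p = 0.0447), but 7.77% of all genes passed it in that fit. In the same fit 3 proteasome genes were lower (*Psma2*, *Psmb4*, *Psmb6*) and 3 were higher (*Psmd7*, *Psmd11*, *Psme4*) at an unadjusted p under 0.05, next to 11.8% and 12% of all genes. *Psmd11*, a lid subunit, was at 70.7, 47.8 and 49.1 CPM in the Baf155 WT mice MS13-3, MS15-2 and MS15-3, and at 61.2, 63.4 and 57.2 CPM in the Baf155 ΔMF mice MS13-1, MS13-2 and MS14-2. MS13-3 was thus the highest of all 6 mice and the other Baf155 WT mice the lowest, and with all mice the log2 fold change was 0.12 (SE 0.14, edgeR adjusted p = 0.815). Within MS13 it was -0.18.

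**Figure D1:**
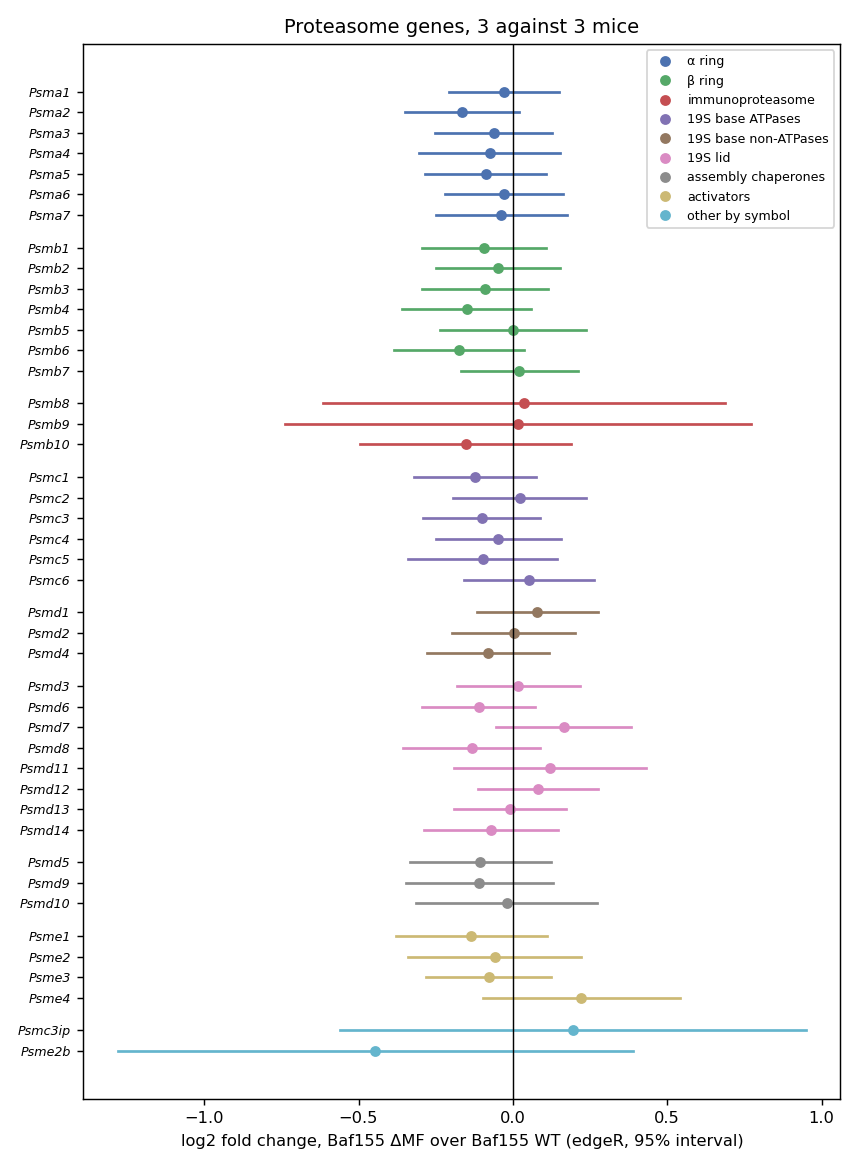
Log2 fold change of Baf155 ΔMF over Baf155 WT mice (x axis) for each of the 43 tested proteasome genes (y axis), coloured by role, with the 95% interval of the edgeR fit as a line. All 43 intervals cross 0, and those of *Psmb8*, *Psmb9*, *Psmc3ip* and *Psme2b* are the widest.

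The alpha ring, which forms the gate of the core, was slightly lower in Baf155 ΔMF mice for each subunit, without any of the 7 passing the test. The log2 fold changes ran from -0.17 for *Psma2* to -0.03 for *Psma6*, with a median of -0.06 and edgeR adjusted p-values from 0.624 to 0.934. *Psma2* encodes the second alpha subunit and lies on chromosome 13 from 14613240 to 14674236 (GRCm38). Its level was 86.8, 96.4 and 90.8 CPM in the Baf155 WT mice and 82.5, 82.0 and 79.8 CPM in the Baf155 ΔMF mice. All Baf155 ΔMF mice were below all Baf155 WT mice, by a gap smaller than the range within Baf155 WT mice. The log2 fold change was -0.17 (SE 0.08, unadjusted p = 0.0743 and adjusted p = 0.624 by edgeR). Within MS13 *Psma2* stayed lower in Baf155 ΔMF mice, by -0.08 on the log2 scale. Each other subunit of the ring was above 0 in MS13, from 0.0022 for *Psma3* to 0.084 for *Psma4*. The mean level of the alpha ring was not lower there: the difference of the mean log2 CPM was -0.07 over all mice and 0.02 in MS13.

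The beta ring showed the same small sizes. Of its 7 constitutive members 6 had a log2 fold change below 0, with a median of -0.09 and a range from -0.17 for *Psmb6* to 0.02 for *Psmb7*. *Psmb4*, which carries no active site, was at 104, 127 and 119.6 CPM in Baf155 WT mice and 105, 108 and 104 CPM in Baf155 ΔMF mice. MS15-2 and MS15-3 were high, while MS13-3 was within the range of the Baf155 ΔMF mice, and the log2 fold change was -0.15 (SE 0.09, edgeR adjusted p = 0.666), or 0.03 within MS13. The mean log2 CPM of the ring differed by -0.08 over all mice and by 0.03 within MS13.

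Among the catalytic subunits, *Psmb5*, which carries the chymotrypsin-like site, was at 59.5, 63.1 and 62.5 CPM in the Baf155 WT mice and at 58.0, 55.3 and 71.8 CPM in the Baf155 ΔMF mice. The highest and the lowest value both came from Baf155 ΔMF mice, and the log2 fold change was -0.0011 (SE 0.11, edgeR adjusted p = 0.998). *Psmb6*, with the caspase-like site, was at 134, 154 and 159.9 CPM in the Baf155 WT mice and at 126, 137 and 134 CPM in the Baf155 ΔMF mice. Here MS15-2 and MS15-3 were above all other mice, and MS13-3 lay among the Baf155 ΔMF values, giving a log2 fold change of -0.17 (SE 0.10, edgeR adjusted p = 0.633) that was -0.03 within MS13. *Psmb7*, with the trypsin-like site, was at 198, 202 and 214 CPM against 204, 216 and 202 CPM. Its groups overlapped over most of their range, with a log2 fold change of 0.02 (SE 0.09, edgeR adjusted p = 0.950).

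The immunoproteasome subunits were present at low counts and varied more between mice of 1 genotype than between genotypes. *Psmb8*, the counterpart of *Psmb5*, was read 48, 103 and 102 times in the Baf155 WT mice MS13-3, MS15-2 and MS15-3, or 4.66, 7.88 and 9.10 CPM. In the Baf155 ΔMF mice MS13-1, MS13-2 and MS14-2 it was read 103, 60 and 43 times, or 11, 6.23 and 5.03 CPM. The highest and the second lowest mouse were both Baf155 ΔMF and the lowest was Baf155 WT, so the groups overlapped, and the log2 fold change was 0.04 (SE 0.30, 95% interval -0.61 to 0.69, edgeR adjusted p = 0.976).

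*Psmb9*, the counterpart of *Psmb6*, was at 1.65, 3.14 and 1.96 CPM in Baf155 WT mice and at 3.20, 2.28 and 1.40 CPM in Baf155 ΔMF mice, from 12 to 41 counts per mouse. The lowest and the highest mouse were both Baf155 ΔMF, and the log2 fold change of 0.02 (SE 0.34, 95% interval -0.74 to 0.77, edgeR adjusted p = 0.990) leaves room for a difference in either direction. *Psmb10*, the counterpart of *Psmb7*, was at 7.97, 10.6 and 10.2 CPM against 8.44, 9.66 and 7.83 CPM. Again MS15-2 and MS15-3 were the highest and the other Baf155 WT mouse overlapped with the Baf155 ΔMF mice, with a log2 fold change of -0.15 (SE 0.16, edgeR adjusted p = 0.781).

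Within MS13 the differences were larger for *Psmb8* and *Psmb9*, and that of *Psmb10* was above 0. The Baf155 WT mouse MS13-3 was lower than both Baf155 ΔMF mice of that prefix for *Psmb8*, *Psmb9* and *Psmb10*, by 0.80, 0.65 and 0.18 on the log2 scale. With the prefix as a covariate *Psmb8* had a log2 fold change of 0.88, at an unadjusted p of 0.0148 and an adjusted p of 0.793 by edgeR, in a fit where genotype is compared only within MS13, with 1 Baf155 WT mouse.

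Each immunoproteasome subunit was also set against the subunit it replaces in the same mouse, which removes scaling between libraries. The log2 ratio of *Psmb8* to *Psmb5* was -3.11 ± 0.45 in Baf155 WT and -3.09 ± 0.70 in Baf155 ΔMF mice (SD, n = 3, two-sided exact permutation p = 1). For *Psmb9* over *Psmb6* it was -5.98 ± 0.38 and -5.80 ± 0.59 (exact permutation p = 0.7), and for *Psmb10* over *Psmb7* it was -4.40 ± 0.19 and -4.56 ± 0.10 (exact permutation p = 0.3). The 3 ratios gave Benjamini-Hochberg adjusted p-values of 1, 1 and 0.9. With 20 assignments of the mice the smallest p-value that this test can give is 0.1. Over all mice the 3 log2 ratios differed between genotypes by 0.02, 0.18 and -0.16. Within MS13 the Baf155 ΔMF mean was above the single Baf155 WT mouse MS13-3 by 0.87, 0.68 and 0.09.

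**Figure D2:**
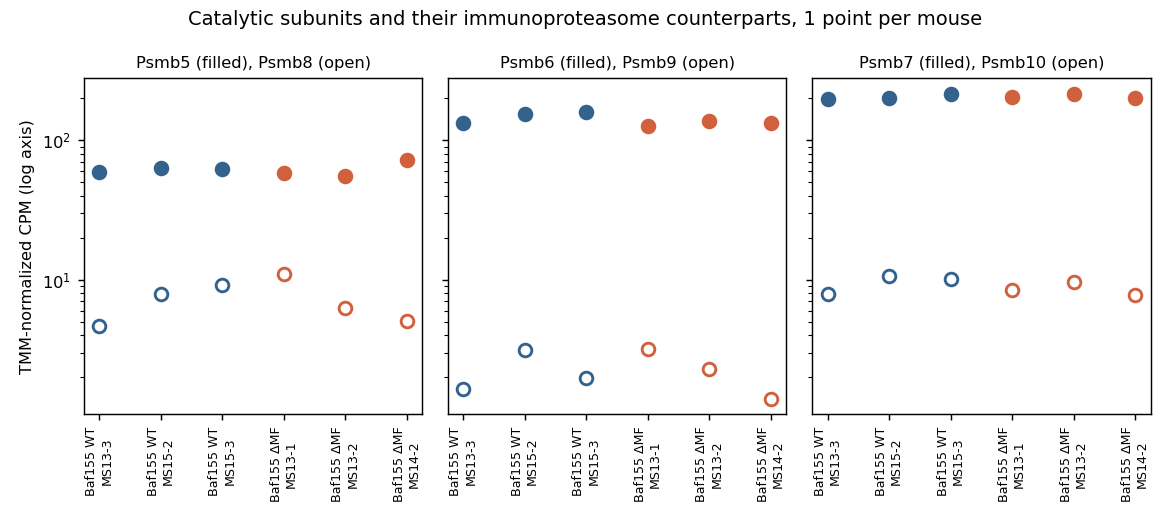
TMM-normalized CPM (y axis, log scale) of each catalytic beta subunit (filled) and its immunoproteasome counterpart (open) in each of the 6 mice (x axis), blue for Baf155 WT and orange for Baf155 ΔMF. The open points of *Psmb8* and *Psmb9* spread more between mice than the filled ones, and the genotypes overlap in all 3 panels.

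Promoter sequence was examined for these genes because the catalytic subunits and their counterparts are known to answer to different factors: NRF1, encoded by *Nfe2l1*, acts on constitutive subunit genes through antioxidant response elements, and interferon acts on the immunoproteasome genes through its own elements. RefSeq windows on GRCm38.p6, from 250 bases before to 50 bases after a start site, were matched for 38 of the 45 genes and searched on both strands. The runs below show, in capitals, the letters TGACNNNGC (antioxidant response element core) in *Psmb5* and *Psmb6*, TTCNNNGAA (gamma-activated site core) in *Psmb8*, and in *Psme1* the reverse complement of GAAA followed after 2 bases by GAAA (interferon-stimulated response element core), each with 10 bases on either side.
Psmb5 (chr14:54618024-54618052, minus strand): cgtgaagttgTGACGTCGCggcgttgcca
Psmb6 (chr11:70525338-70525366, plus strand): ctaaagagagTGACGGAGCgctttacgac
Psmb8 (chr17:34198088-34198116, plus strand): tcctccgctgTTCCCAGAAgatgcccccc
Psme1 (chr14:55578493-55578522, plus strand): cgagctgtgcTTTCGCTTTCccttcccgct

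The match began 47 bases before the start site in *Psmb5*, 9 bases before it in *Psmb6*, 97 bases before it in *Psmb8* and 9 bases after it in *Psme1*. TGACNNNGC was found for 6 of the 38 genes (15.8%), beside 17.3% of the 9374 tested genes with a window. The other 4 were *Psmc6*, *Psmd9*, *Psmd12* and *Psme4*. The GAAA repeat was found for 4 genes (*Psmb3*, *Psmd4*, *Psmd9* and *Psme1*), or 10.5% beside 3.72%, and TTCNNNGAA for 2 genes (*Psmb8* and *Psmd2*), or 5.26% beside 8.28%. CCAAT was found for 15 genes, or 39.5% beside 42.6%. These are matches of letters and not binding sites. No proteasome gene passed the test between genotypes with all 6 mice, so the letters could not be compared with a difference.

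In the base of the regulatory particle, 6 ATPases unfold the substrate. Their log2 fold changes lay between -0.12 (*Psmc1*) and 0.05 (*Psmc6*), with 4 of 6 below 0 and edgeR adjusted p-values from 0.699 to 0.955. *Psmc3* was at 190.0, 200.3 and 208 CPM in Baf155 WT mice and at 180.1, 189 and 188 CPM in Baf155 ΔMF mice. Its groups did not overlap, but MS13-3 was above the closest Baf155 ΔMF mouse by about 1 CPM, and the log2 fold change was -0.10 (SE 0.09, edgeR adjusted p = 0.732). The scaffold proteins *Psmd1* and *Psmd2* and the ubiquitin receptor *Psmd4* had log2 fold changes of 0.08, 0.00 and -0.08.

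The lid, which holds the deubiquitinating subunit *Psmd14*, was divided, with 4 of its 8 subunits above 0 and 4 below. *Psmd14* itself was at 66.4 ± 6.50 CPM in mice with Baf155 and 63.2 ± 3.92 CPM in Baf155 ΔMF mice, with a log2 fold change of -0.07. *Psmd6* was at 141.9, 142 and 149 CPM against 129, 139 and 133 CPM, again without overlap (log2 fold change -0.11, SE 0.08, edgeR adjusted p = 0.705). *Psmd7*, the partner of *Psmd14* in the lid, was at 66.4, 53.4 and 59.6 CPM in Baf155 WT mice and 67.9, 69.4 and 63.6 CPM in Baf155 ΔMF mice. MS13-3 lay within the Baf155 ΔMF range and the other Baf155 WT mice below it, and the log2 fold change of 0.17 (SE 0.10, edgeR adjusted p = 0.656) was 0.05 within MS13.

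*Psma2*, *Psmc3* and *Psmd6* were the tested proteasome genes whose genotypes did not overlap, all lower in Baf155 ΔMF mice, which makes 3 of 43 where 5.57% of all genes were lower without overlap. None was higher without overlap, where 5.2% of all genes were. Within MS13 *Psma2*, *Psmc3* and *Psmd6* differed by -0.08, -0.04 and -0.08 on the log2 scale.

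The constitutive subunits were steady between mice of 1 genotype. Their within-genotype SD of log2 CPM had a median of 0.088 over the 31 genes, compared with 0.116 over 1858 tested genes in the same range of levels and 0.162 over all tested genes. The immunoproteasome subunits had a median SD of 0.497. Averaged over the 31 constitutive subunits, log2 CPM was 6.66, 6.70 and 6.73 in the Baf155 WT mice MS13-3, MS15-2 and MS15-3, and 6.64, 6.70 and 6.63 in the Baf155 ΔMF mice MS13-1, MS13-2 and MS14-2. The difference of the genotype means was -0.04 and lay within the overlap of the groups, and in MS13 it was 0.02. Of the 31 subunits, 13 were highest in MS15-3 and 9 in MS15-2, the mice of the prefix that holds no Baf155 ΔMF mouse, where 19.3% and 19.1% of all genes were highest. The lowest mouse was MS13-1 for 9 subunits, MS14-2 for 8, MS13-3 for 6 and MS15-2 for 5, where 18.4%, 14.6%, 14.7% and 16.6% of all genes were lowest. MS13-2, a Baf155 ΔMF mouse, was highest for 5 subunits and lowest for 1.

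**Figure D3:**
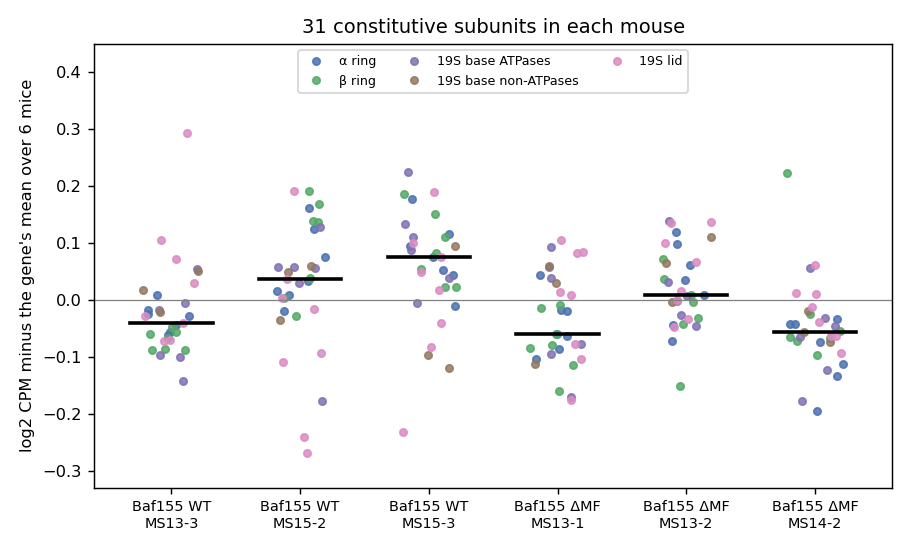
Log2 CPM of each of the 31 constitutive subunits minus that gene's mean over the 6 mice (y axis), for each mouse (x axis), coloured by role, with the median as a black bar. The medians run from -0.06 in MS13-1 to 0.08 in MS15-3, and the points of every mouse fall on both sides of 0.

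The activators bind the ends of the core in place of the regulatory particle. *Psme1* and *Psme2*, which form an activator that interferon induces, were at 26.4, 30.1 and 33.3 CPM and at 16.8, 22.4 and 22.3 CPM in the Baf155 WT mice, and at 26.6, 26.5 and 28.9 CPM and at 19.9, 19.9 and 19.4 CPM in the Baf155 ΔMF mice. For both, MS13-3 was the lowest mouse and MS15-2 and MS15-3 were the highest. The log2 fold change was -0.13 for *Psme1* (SE 0.11, edgeR adjusted p = 0.722) and -0.06 for *Psme2* (SE 0.13, edgeR adjusted p = 0.903). Within MS13 they were 0.0056 and 0.24. The deposited counts of *Psme2* and of its copy *Psme2b* were not whole numbers in all 6 mice, so the division of reads between them is uncertain, and the log2 fold change of *Psme2b* was -0.45 (SE 0.38, edgeR adjusted p = 0.734).

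*Psme4*, the single-chain activator, was at 579, 477 and 382 CPM in Baf155 WT mice and at 589, 595 and 493 CPM in Baf155 ΔMF mice. MS13-3 was again among the Baf155 ΔMF mice and the other Baf155 WT mice were below all of them, with a log2 fold change of 0.22 (SE 0.14, edgeR adjusted p = 0.675) that was 0.03 within MS13 and 0.38 without MS13-3 (edgeR adjusted p = 0.0623). *Psme3*, the nuclear activator, was at 44.9 ± 2.21 and 42.6 ± 2.56 CPM. The assembly chaperones *Psmd5*, *Psmd9* and *Psmd10* had log2 fold changes of -0.11, -0.11 and -0.02, and *Psmc3ip* had 0.19 at 1.59 ± 0.412 and 1.83 ± 0.670 CPM.

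The 2 genes that were not tested are the tissue-specific core subunits. *Psma8*, an alpha subunit of the testis, had 1, 3 and 1 counts in Baf155 WT mice and 0 in each Baf155 ΔMF mouse, where a count of 0 allows up to 0.351 CPM. *Psmb11*, the thymic beta subunit, had 1 to 6 counts per mouse. No genotype difference was detectable for them at this depth.

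Leukocyte markers and genes of the interferon response and antigen presentation were read beside the immunoproteasome, which many leukocytes and interferon-treated cells are known to express. All 8 leukocyte markers tested, of 10 listed, were lower in Baf155 ΔMF mice at an unadjusted p under 0.05, where 4.6% of all genes were. Their median log2 fold change was -0.88, and none passed the adjusted limit in edgeR (adjusted p = 0.601). The genotypes overlapped for each of these markers, and within MS13 the mean log2 CPM of the markers differed by -0.07. Their summed level was 149.6, 424 and 335 CPM in Baf155 WT mice and 139, 145 and 216 CPM in Baf155 ΔMF mice. The T cell and B cell markers *Cd3e* and *Cd79a* were at 0.468 CPM or below in every mouse, with the highest value for *Cd3e* in the Baf155 ΔMF mouse MS14-2. The summed level of the 11 interferon and antigen presentation genes was 302, 573 and 483 CPM against 405, 396 and 340.3 CPM, with a median log2 fold change of -0.29 and 4 of the 11 above 0. The only one at an unadjusted p under 0.05 was *Irf1*, an interferon response factor, which was higher in Baf155 ΔMF mice by a log2 fold change of 0.47 (SE 0.18, unadjusted p = 0.0255 and adjusted p = 0.601 by edgeR). The genotypes overlapped for *Irf1*, and within MS13 its log2 fold change was 0.85.

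The mean log2 CPM of the 3 immunoproteasome subunits was 2.06, 2.73 and 2.57 in Baf155 WT mice and 2.79, 2.43 and 2.02 in Baf155 ΔMF mice. MS13-3 was low and MS15-2 and MS15-3 were high in this mean and in both marker lists. MS13-1 was the highest mouse for the immunoproteasome but was low for the leukocyte markers. Within MS13 the Baf155 ΔMF mice differed from MS13-3 by 0.54 in the immunoproteasome mean, by 0.53 in the interferon and antigen presentation mean and by -0.07 in the leukocyte mean. The part of leukocytes in the immunoproteasome values was not tested.

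**Figure D4:**
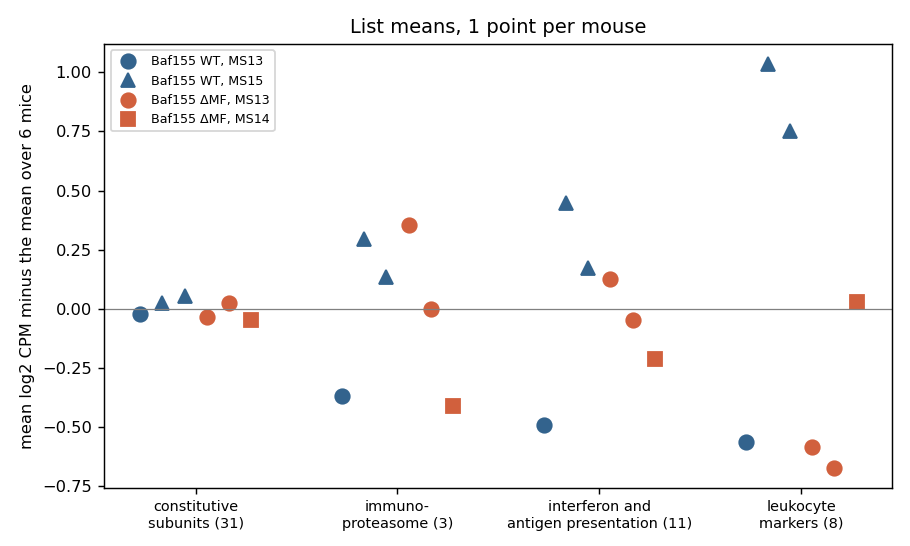
Mean log2 CPM of each list minus its mean over the 6 mice (y axis) for 4 gene lists (x axis), 1 point per mouse, with colour for genotype and shape for title prefix. The constitutive subunits stay close to 0, the immunoproteasome mean is lowest in MS14-2 and MS13-3 and highest in MS13-1, and the leukocyte markers are highest in the mice with prefix MS15.

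Compared per length, the constitutive subunits were far above the immunoproteasome in both genotypes. With the joined exons of GENCODE M21 (GRCm38) as length, *Psmb6* was at 79.9 ± 7.27, *Psmb5* at 68.6 ± 2.17 and *Psmb7* at 59.7 ± 2.40 CPM per kilobase in Baf155 WT mice. *Psmb10* was at 5.63 ± 0.836, *Psmb8* at 2.13 ± 0.678 and *Psmb9* at 0.615 ± 0.214 CPM per kilobase, an order whose steps exceeded the summed SDs of neighbours in both genotypes. The median of the 3 catalytic subunits was 34.6 ± 11.7 times that of the 3 immunoproteasome subunits in Baf155 WT mice and 34.1 ± 14.2 times in Baf155 ΔMF mice. With the longest transcript as length these ratios were 20.4 ± 6.94 and 21.97 ± 9.01, and *Psmb5* and *Psmb7* changed places.

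The subunits of 1 particle were not at equal levels of RNA. With joined exons the constitutive subunits ran from 8.75 CPM per kilobase for *Psmd11* to 94.9 CPM per kilobase for *Psmd8* in Baf155 WT mice, and with the longest transcript from 18.8 for *Psmd11* to 155 for *Psmb6*. *Psmd11*, *Psmd3* and *Psmc2* were the lowest 3 by either length, and all 3 immunoproteasome subunits were below them. *Psme4* was at 57.2 ± 11.7 CPM per kilobase in Baf155 WT and 66.7 ± 6.84 in Baf155 ΔMF mice, above *Psme1* at 13.6 ± 1.55 and 12.4 ± 0.615. Exons of 9 of the 45 genes overlap those of another protein-coding gene, 8 of them on the opposite strand, and whether strand was used in counting is not given in the sources used here. The shared bases make up 21.2% of the exons of *Psmc3ip* (with *Mlx*), 11.8% of *Psmb7* (with *Nek6*), 10.1% of *Psmd13* (with *Sirt3*), 8.2% of *Psmc3* (with *Slc39a13*), 5.8% of *Psmb9* (with *Tap1*) and less in the other 4 genes.

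**Figure D5:**
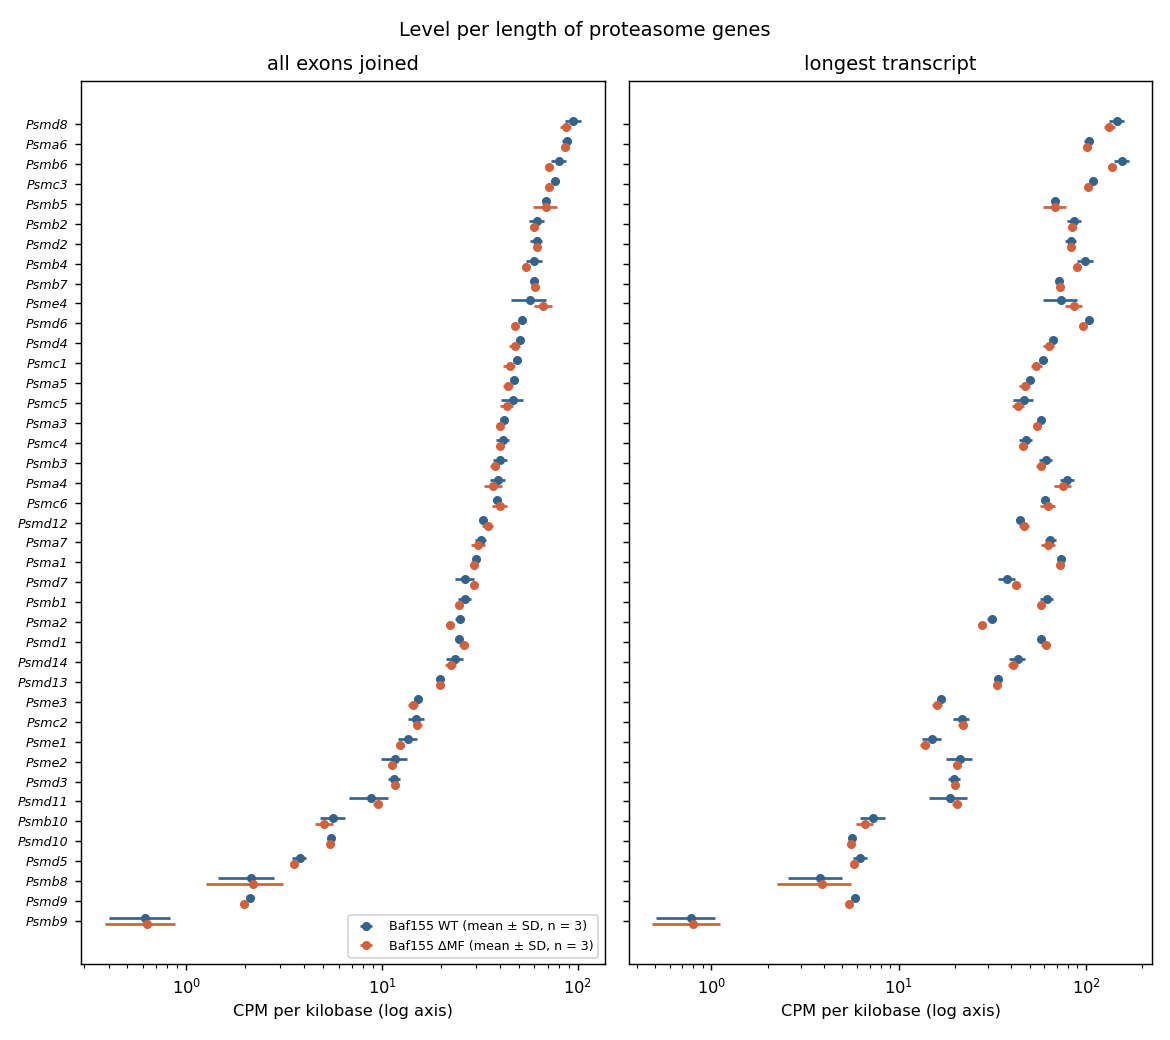
CPM per kilobase (x axis, log scale; mean ± SD, n = 3 mice) of the proteasome subunits, chaperones and activators except *Psma8* and *Psmb11*, with joined exons (left) and the longest transcript (right) as length, blue for Baf155 WT and orange for Baf155 ΔMF. The genotypes lie close together for each gene, and *Psmb8*, *Psmb9* and *Psmb10* are below every constitutive subunit in both panels.

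The genes that build, bind and regulate the proteasome were read from lists of 35 genes, of which 34 were tested. Of these, 17 were below 0 and 17 above 0 in log2 fold change, and 6 were lower and 1 higher without overlap of the genotypes, where 5.57% and 5.2% of all genes were. None passed the adjusted limit in edgeR. Of the genes described here, *Psmg4* and *Psmf1* were lower and *Nfe2l1* was higher at an unadjusted p under 0.05. Over all genes tested, 4.6% were lower and 3.35% were higher at that limit. *Psmg4*, a chaperone of core assembly, was at 4.47, 6.04 and 5.35 CPM in Baf155 WT mice and 3.74, 4.46 and 3.51 CPM in Baf155 ΔMF mice. The groups did not overlap but nearly touched, with a log2 fold change of -0.44 (SE 0.19, unadjusted p = 0.0438 by edgeR) that was -0.12 within MS13.

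The core chaperones *Psmg2*, *Psmg3* and *Pomp* were also lower without overlap, at log2 fold changes of -0.24, -0.23 and -0.16 over all mice and -0.26, -0.24 and -0.0083 within MS13, while *Psmg1* had -0.08 and *Akirin2*, which brings proteasomes into the nucleus, had 0.05. The mean log2 CPM of the assembly list was 3.67, 3.80 and 3.81 in Baf155 WT mice and 3.60, 3.55 and 3.58 in Baf155 ΔMF mice. Every Baf155 ΔMF mouse was below every Baf155 WT mouse in this mean, by -0.18 between genotypes and by -0.09 within MS13. *Psmf1*, an inhibitor of the core, was at 16.5, 16.4 and 16.3 CPM against 13.5, 15.5 and 10.2 CPM, with a log2 fold change of -0.33 (SE 0.14, unadjusted p = 0.0438 by edgeR) that was -0.19 within MS13.

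*Nfe2l1*, which encodes the NRF1 factor, was at 432, 356 and 349 CPM in Baf155 WT mice and at 459, 438 and 439 CPM in Baf155 ΔMF mice. All Baf155 ΔMF mice were higher, MS13-3 came close to them, and the log2 fold change was 0.23 (SE 0.11, unadjusted p = 0.0482 by edgeR) over all mice and 0.05 within MS13. The 6 genes of the NRF1 list were all above 0, with a median of 0.13, but their mean log2 CPM differed by -0.0047 within MS13.

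Outside these lists, the tested genes whose log2 CPM followed the mean of the constitutive subunits most closely over the 6 mice were *Tiam2* (Pearson's r = 0.994), *1700088E04Rik* (0.987), *Gprc5c* (0.986), *Fam207a* (0.984) and *0610009B22Rik* (0.984). They are the highest of 12116 genes over 6 points and are given as a description.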

How the data were processed

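The authors deposited 1 table of expected counts per gene, which are estimated numbers of reads and not normalized, for 6 libraries (1 per mouse). The submitters' processing notes name CASAVA 1.8.2, cutadapt 1.10, Bowtie2 2.2.7, TopHat2 2.1.1, RSEM 1.2.30 and limma, with the builds mm10 and GRCm38, without role or order. Total RNA was prepared with a stranded kit. The expected counts were rounded to whole numbers, and edgeR 4.0.16 (R 4.3.3) was run with filterByExpr (minimum count 10, total 15), TMM scaling (factors 0.958 to 1.05), the quasi-likelihood F test without covariates, and Benjamini-Hochberg adjustment over 12116 genes. The common biological coefficient of variation was 0.111. Depth ran from 8426022 to 12469335 counts, and precision at low counts is limited by counting error and by variation between mice. *Psmb8*, with 459 counts in total, had an SE of 0.30, and *Psmd10*, with 496, had 0.13.

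CPM are TMM-normalized, and log2 CPM uses a prior count of 2. Ratios were tested by two-sided exact permutation over 20 assignments. Alternatives were DESeq2 1.42.0, limma-voom 3.58.1, other scalings and filters, a robust fit, the title prefix as covariate, and each mouse left out. Scripts were tested on simulated data. Lengths and positions come from GENCODE M21, promoters from RefSeq. The proteasome genes and all lists were chosen with earlier results of these data known. By rule, *Psmb5* to *Psmb10*, *Psme1* and *Psme2* were named with each mouse's values, with up to 4 genes per direction at an unadjusted p under 0.05 (none), outside genes under that limit (1 of them is not reported here), and the 5 most alike genes. *Psma2*, *Psmb4*, *Psmc3*, *Psmd6*, *Psmd7*, *Psmd11*, *Psme4* and the non-overlapping assembly chaperones were named after their values were seen.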

Additional observations from a re-analysis of the deposited data

How the results depend on the processing

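No paired analysis was possible because the genotypes share no replicate numbers. In 14 of 15 other fits no proteasome gene passed the adjusted limit; without the Baf155 WT mouse MS13-3 1 did (*Psmd11*, log2 fold change 0.33), and over the fits that leave out 1 mouse the number of all genes called ran from 0 to 955, that of proteasome genes called from 0 to 1 and that at an unadjusted p under 0.05 from 0 to 6. All genes called numbered 3 in the edgeR test, 23 with DESeq2, 5 with limma-voom, 17 with at least 1 count as filter and 16 with the prefix as covariate. Of 43 tested genes 13 were fitted in all fits and kept 1 sign in them. With the library size alone, which moved the median of all genes by -0.06, 27 of the 31 constitutive subunits were below 0 (22 with TMM), their median was -0.11, 1 proteasome gene (*Psma2*) had an unadjusted p under 0.05, and *Psmb7*, *Psmb8* and *Psmb9* were at -0.043, -0.040 and -0.056. With the prefix as covariate 16 proteasome genes were below 0 (30 without), 12 of them constitutive, 1 (*Psmb8*) had an unadjusted p under 0.05, the median was 0.023 for constitutive and 0.73 for immunoproteasome subunits, and *Psmb10*, *Psme1*, *Psme2* and *Psmd11* were at 0.18, 0.0056, 0.24 and -0.18. Within MS13 alone the medians were 0.021 and 0.65, the same 4 genes were at 0.18, 0.0056, 0.24 and -0.18, and *Psmb10* over *Psmb7* was at 0.090.

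Near 0, signs turned easily. *Psmb5* was at 0.00018 with DESeq2 and 6.1e-05 with RLE, and *Psmb9* at -0.0051 with limma-voom and -0.00097 with upper quartile scaling. With 1 mouse left out the lowest and highest values were -0.36 and 0.25 for *Psmb8*, -0.29 and 0.35 for *Psmb9*, -0.12 and 0.073 for *Psmb5*, -0.0092 and 0.054 for *Psmb7*, -0.18 and 0.015 for *Psme2*, -0.099 and -0.010 for the median of the constitutive subunits, -0.33 and 0.37 for *Psmb8* over *Psmb5* and -0.12 and 0.48 for *Psmb9* over *Psmb6*. The catalytic to immunoproteasome ratio fell from 34.6 to 20.4 with the longest transcript as length. The single-gene values above are drawn from 12 of the proteasome genes, of which *Psma2*, *Psme4*, *Psmd7* and *Psmd11* were added after their values were seen. Causes were not tested. The 3 mice per genotype and, for *Psmb9*, the 12 to 41 counts limit the precision.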
